A study of Mus musculus with 24 samples.

Results

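The clustered protocadherins are cell-surface adhesion proteins encoded by tandem genes on mouse chromosome 18. Members were all genes whose mouse symbol starts with Pcdha, Pcdhb, Pcdhga, Pcdhgb or Pcdhgc followed by a number, together with Pcdhac1 and Pcdhac2. The rule found 58 genes among the 36528 genes listed for each library, namely 14 alpha, 22 beta and 22 gamma genes. The gamma genes comprise 12 of subgroup A, 7 of subgroup B and the genes Pcdhgc3, Pcdhgc4 and Pcdhgc5. In subgroup B, Pcdhgb8 is annotated as a transcribed pseudogene. On GRCm38 the alpha genes lie at chr18:36930285-37188897, the beta genes at chr18:37264998-37521419 and the gamma genes at chr18:37661775-37841873.

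RNA was sequenced in bulk from neurons of adult mouse cortex, in 24 libraries, with 6 libraries each of the subtypes labelled PV, SST, VIP and EXC. PV, SST and VIP are the usual abbreviations for parvalbumin, somatostatin and vasoactive intestinal peptide GABA neurons, and EXC for excitatory neurons. The labels do not spell them out. All cells were dissociated with papain and sorted live as DAPI-negative cells positive for GFP or tdTomato, depending on the reporter line. The lines, their promoters, the exact age and the number of animals per library were not stated in the labels. The p-values below therefore rest on the spread among libraries, which may be technical. Of the PV libraries, 3 were labelled female and 3 male, of the SST libraries 2 and 4, of the VIP libraries 4 and 2 and of the EXC libraries 2 and 4.

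Each alpha or gamma transcript joins 1 long variable exon, which encodes the extracellular domain, to constant exons shared by the whole cluster, which encode a common cytoplasmic tail. Beta genes have no constant exons. Counts are of uniquely aligning reads, so reads from stretches that are alike in more than 1 gene may be missing. How many were lost was not tested. A neuron transcribes a limited, largely random choice of alternate isoforms, set by promoter methylation and by CTCF- and cohesin-mediated looping to distant enhancers. The C-type isoforms Pcdhac1, Pcdhac2, Pcdhgc3, Pcdhgc4 and Pcdhgc5 are instead regulated by cell type and stage. The proteins pair with identical isoforms on facing membranes, and are known for self-avoidance of dendrites, axon tiling and survival of cortical GABA neurons.

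Total counts ran from 1548907 to 15978459 per library, with a median of 6012251.5. PV libraries were the shallowest, at 2862276 ± 1081037 counts (SD, n = 6), and 14.4% to 52.9% of their reads were mitochondrial, against 3.84% to 9.86% in EXC libraries. Levels are therefore given as CPM, counts scaled to library size and normalised by TMM, and in PV libraries a level of a few CPM rests on few reads. The sorted subtypes carried their own markers. Pvalb averaged 201 CPM in PV libraries, Sst averaged 1158 CPM in SST libraries, Vip averaged 1727 CPM in VIP libraries and Slc17a7 averaged 532 CPM in EXC libraries. EXC libraries also held all 5 listed markers of dentate granule cells, a hippocampal type, with a summed level of 1140 to 1628 CPM. VIP libraries had 1077 to 1173 CPM for the same sum, of which Prox1, also a gene of VIP neurons, made up nearly all. The EXC Dsp level was 275 ± 69.5 CPM (SD, n = 6), against 0.585 to 1.65 CPM on average in the other subtypes. The summed level of the 8 astrocyte markers was 236 to 762 CPM in PV libraries, 238 to 344 in SST libraries, 1122 to 1643 in VIP libraries and 503 to 4304 in EXC libraries. All 8 were detected in each subtype. The summed level of the 8 oligodendrocyte markers was 117 to 446 CPM in PV libraries, 84.3 to 195 in SST libraries, 53.7 to 724 in VIP libraries and 79.9 to 2944 in EXC libraries. The part of these markers in the results was not tested. All PV libraries and 5 EXC libraries share sequencing pool POOL6188, 5 SST libraries and VIP replicates 1 and 3 share POOL7098, and EXC replicate 3 shares POOL7099 with the other 4 VIP libraries. SST replicate 5 is alone in POOL7100. Only PV against EXC and SST against VIP can be compared within a pool, the latter with VIP replicates 1 and 3 only. The other pairs rest on comparisons in which pool and subtype mostly cannot be told apart.

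In the counts as deposited, 51 of the 57 tested members differed among the 4 subtypes, where 68.5% of all 14890 tested genes did (edgeR quasi-likelihood test, adjusted p under 0.05). Pcdhb1, with 26 reads in all, was too low to test. Of the 57, PV against EXC called 40 members (45.9% of all genes), with 15 higher and 25 lower in PV. SST against EXC called 21 (38.4% of all genes), VIP against EXC 34 (39.1%), PV against SST 23 (26.3%), PV against VIP 29 (48.6%) and SST against VIP 22 (31.3%). Alpha and gamma genes were called as blocks. All 14 alpha genes were higher in PV than in EXC, by 1.05 to 1.23 on the log2 scale, and 21 of 22 gamma genes were lower, with log2 fold changes of -1.37 to -0.56 over the 22.

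The gene models of the alpha and gamma clusters share exons. Within a library the 12 alternate alpha genes had nearly the same count. Their range was 2.31% of their lowest count at the median library, while the counting error of 1 such count was 2.38%. The 19 alternate gamma genes were less alike. Their range was 8.16% to 40% of their lowest count, with a median of 11.6%, against a median counting error of 2.65%. The model lengths implied by the deposited counts and RPKM values, 5206 to 5422 bases for alpha genes and 4480 to 5080 bases for gamma genes, include the constant exons, whose length in the GENCODE M21 annotation is 2860 bases for alpha and 2119 bases for gamma. A set of 3 read-through gene models, which join the variable exon of Pcdha4, Pcdha6 or Pcdha7 to the gamma constant exons, gave a check. The differences among the 3 models were set against those among the 3 alpha genes in all 24 libraries. Of 72 such comparisons, 19 were equal and 70 lay within 5 reads. Within each set of 3, the constant exons had thus added nearly the same number of reads to every model.

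Each count was therefore split. The shared part of a cluster is the lowest count among its gene models in a library. For gamma the read-through models were included. The own part of a gene is its count minus the shared part. The own part is a lower bound, at 0 by construction in the lowest model, and the split was made after the values were seen. The split left 37 tested values, namely the own parts of 35 genes and the 2 shared parts, with Pcdha1 too low to test. Of these, 24 differed among the 4 subtypes, where 68.5% of all genes tested with them did. PV against EXC called 19 of the 37 (45.8% of all genes), SST against EXC 12 (38.4%), VIP against EXC 8 (38.9%), PV against SST 9 (26.4%), PV against VIP 17 (48.5%) and SST against VIP 8 (31.2%). The fold changes of individual gamma genes, which had lain close together, spread out on both sides of 0, as the plot of fold changes before and after the split shows. All adjusted p-values below come from edgeR's quasi-likelihood test over all genes with Benjamini-Hochberg adjustment, on own and shared parts for alpha and gamma genes and on deposited counts for beta genes.

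**Figure D1:**
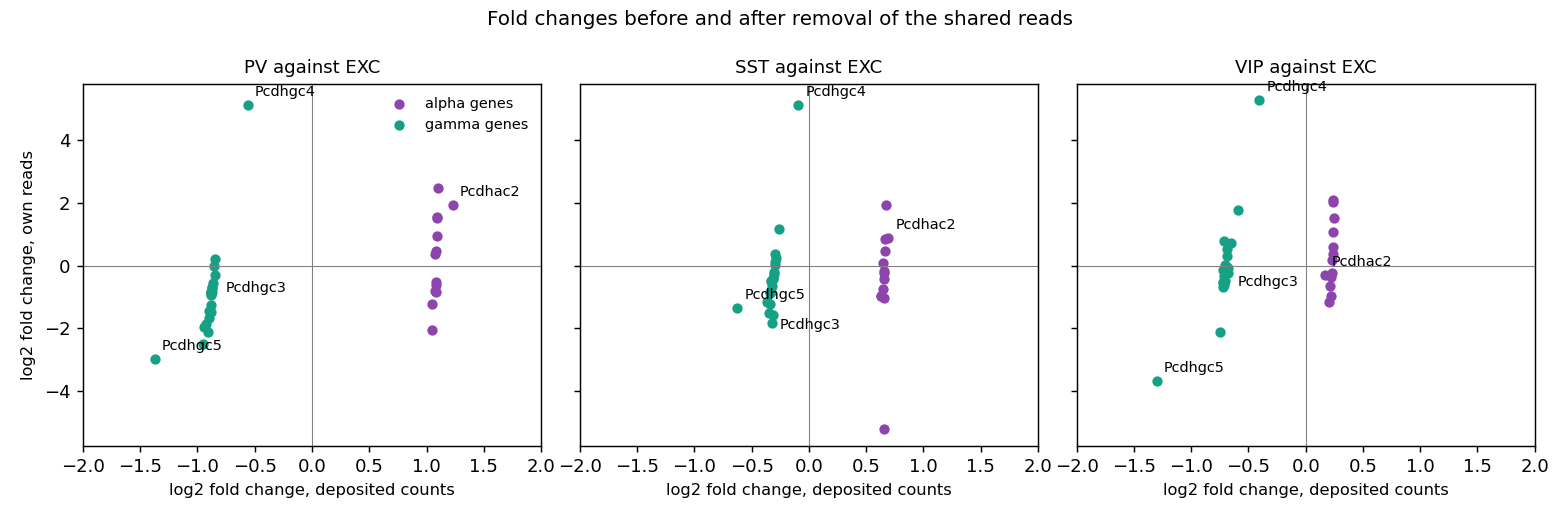
Log2 fold change of each alpha and gamma gene against EXC in own reads (vertical) and in the deposited counts (horizontal), for PV, SST and VIP. Deposited values form 2 narrow bands, while own reads separate Pcdhgc4, near 5, from Pcdhgc5, below 0, and the lowest SST point is Pcdha8, which rests on 1 own read over the 6 SST libraries.

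The C-type genes had different patterns over the subtypes. Pcdhgc4 had own reads in all 3 GABA subtypes and almost none in EXC, Pcdhgc5 was highest in EXC, and Pcdhac2 was highest in PV. Pcdhgc3 was lower in SST than in each other subtype. Of the 5 genes, 4 differed among the subtypes, where 68.5% of all genes did, and Pcdhac1 did not pass the test.

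Pcdhgc4 is the gamma isoform known from mouse knockouts to be required for the survival of cortical GABA neurons, and its protein needs a partner protocadherin to reach the surface. Its own level ran from 33.0 to 46.6 CPM with a median of 40.8 in PV libraries, from 31.6 to 45.3 with a median of 41.4 in SST libraries, from 25.5 to 74.4 with a median of 45.5 in VIP libraries and from 0 to 3.24 with a median of 0.519 in EXC libraries. Every GABA library lay above every EXC library, and the 3 GABA subtypes overlapped. The EXC values rest on 45 own reads in all, with 0, 3, 3, 5, 15 and 19 reads per library, and those of PV, the shallowest subtype, on 595. The log2 fold change was 5.11 ± 0.48 (adjusted p = 1.83e-09) for PV against EXC (± SE), 5.13 ± 0.47 (adjusted p = 2.52e-09) for SST against EXC and 5.27 ± 0.48 (adjusted p = 1.15e-09) for VIP against EXC. The pairs PV against SST, PV against VIP and SST against VIP gave -0.02 ± 0.37, -0.16 ± 0.37 and -0.15 ± 0.38. None of these passed the test. Within POOL7098, however, SST was higher than VIP by 0.57 ± 0.22 (adjusted p = 0.0471), where VIP is represented by replicates 1 and 3 only. Within POOL6188 the PV against EXC value was 5.59 ± 0.53 (adjusted p = 2.34e-07), and with pool as a term in the model all 3 differences from EXC passed, at 5.61, 4.46 and 3.93 for PV, SST and VIP.

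The deposited counts of Pcdhgc4, which hold the shared reads, did not show this. They averaged 197 ± 21.4 CPM in PV, 274 ± 27.9 in SST, 219 ± 64.2 in VIP and 291 ± 118 in EXC (SD, n = 6 each), and did not pass the test among subtypes (adjusted p = 0.141). Marker sums also differed among these groups. The summed dentate granule markers were 5.55 to 18.2 CPM in PV libraries, 5.36 to 13.8 in SST, 1077 to 1173 in VIP and 1139.8 to 1628 in EXC. The VIP sum was nearly all Prox1, also a gene of VIP neurons. The 5 listed GABA neuron markers summed to 272 to 767 CPM in EXC libraries, highest in replicate 3, and to 3422 CPM or more in every PV, SST and VIP library. The part of these markers in the Pcdhgc4 result was not tested. Fewer cells with a transcript and less RNA per cell cannot be told apart in these bulk libraries, here and below.

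**Figure D2:**
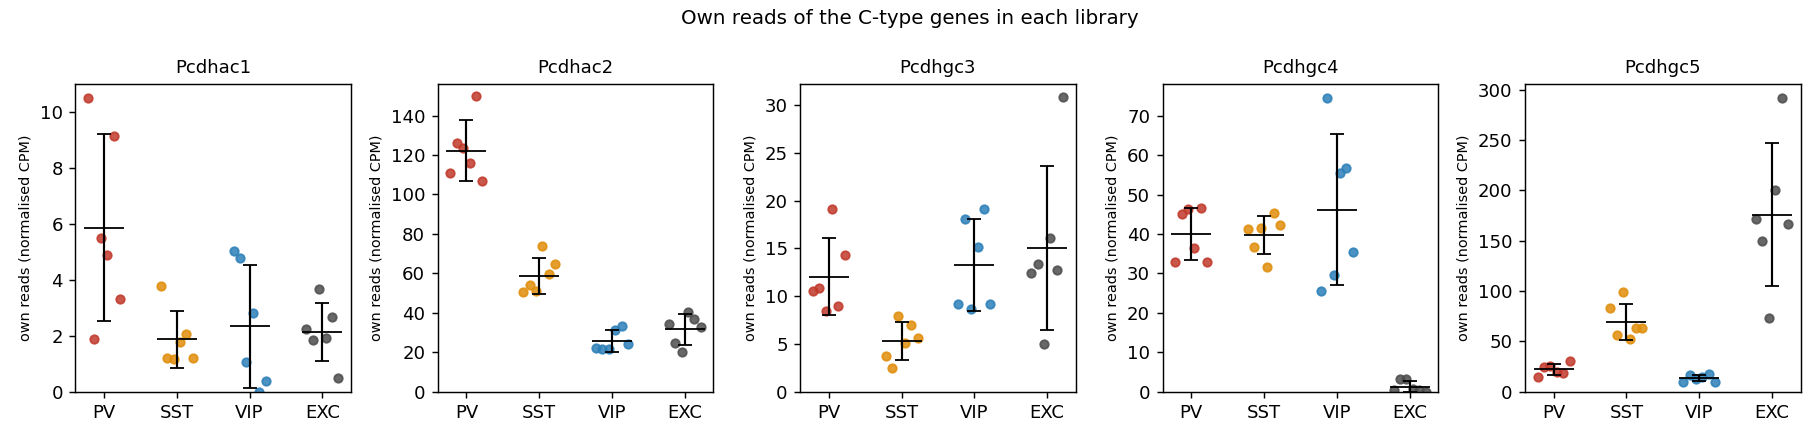
Own reads of the 5 C-type genes in normalised CPM (vertical) in each library (points), by subtype, with the mean and SD of 6 libraries (bars). Pcdhgc4 lies at 25.5 CPM or more in every PV, SST and VIP library and at 3.24 CPM or less in every EXC library, while Pcdhgc5 has its highest mean in EXC.

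Pcdhgc5, a neighbouring C-type isoform whose protein is known to interact with GABA-A receptors, ran the other way. Its own level ran from 15.0 to 30.8 CPM with a median of 21.9 in PV libraries, from 52.8 to 99.3 with a median of 63.4 in SST libraries, from 9.83 to 17.4 with a median of 13.8 in VIP libraries and from 73.5 to 292 with a median of 169.5 in EXC libraries. EXC did not overlap PV or VIP, and its lowest library lay within the SST range. Log2 fold changes were -2.98 ± 0.26 (adjusted p = 6.61e-10) for PV against EXC, -1.34 ± 0.24 (adjusted p = 5.6e-05) for SST against EXC and -3.67 ± 0.27 (adjusted p = 1.73e-11) for VIP against EXC. Among GABA subtypes SST was highest, with -1.64 ± 0.26 (adjusted p = 1.97e-05) for PV against SST and 2.33 ± 0.26 (adjusted p = 8.3e-08) for SST against VIP, and PV was higher than VIP by 0.69 ± 0.26 (adjusted p = 0.0306). Within a pool, PV against EXC was -3.15 ± 0.20 and SST against VIP was 2.66 ± 0.32. With pool as a term the SST against EXC difference turned to 0.39 (adjusted p = 0.56) and the PV against VIP difference to -0.93 (adjusted p = 0.165), neither past the test. In that fit EXC replicate 3 is the only EXC library in the pool of the other 4 VIP libraries.

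The C-type genes also took different shares of the gamma own reads. Pcdhgc4 held 21.0% ± 3.38 in PV, 13.2% ± 1.85 in SST, 15.4% ± 3.98 in VIP and 0.349% ± 0.434 in EXC. Pcdhgc5 held 11.6% ± 2.78 in PV, 22.6% ± 2.66 in SST, 4.68% ± 1.09 in VIP and 38.0% ± 9.83 in EXC (SD, n = 6 each). The mean share of Pcdhgc4 was above that of Pcdhgc5 in PV and VIP, and below it in SST and EXC. Pcdhac1 and Pcdhac2 together held, of alpha own reads, 78.9% ± 5.89 in PV, 68.3% ± 4.01 in SST, 44.8% ± 11.4 in VIP and 49.7% ± 12.9 in EXC. Pcdhgc3, Pcdhgc4 and Pcdhgc5 together held, of gamma own reads, 39.0% ± 3.44 in PV, 37.5% ± 2.91 in SST, 24.5% ± 5.29 in VIP and 41.6% ± 9.72 in EXC.

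Pcdhac2, the alpha C-type isoform known in mouse for the tiling of serotonergic axons, was highest in PV. Its own level ran from 107 to 149.7 CPM with a median of 119.9 in PV libraries, from 50.4 to 73.7 with a median of 56.8 in SST libraries, from 21.5 to 33.5 with a median of 23.0 in VIP libraries and from 19.9 to 40.4 with a median of 33.7 in EXC libraries. PV lay above SST, and SST above VIP and EXC, without overlap, and VIP overlapped EXC. PV was higher than EXC by 1.94 ± 0.18 (adjusted p = 9.77e-10) on the log2 scale, than SST by 1.05 ± 0.17 (adjusted p = 3.11e-05) and than VIP by 2.26 ± 0.18 (adjusted p = 9.79e-11). SST was higher than EXC by 0.89 ± 0.17 (adjusted p = 0.000148) and than VIP by 1.21 ± 0.17 (adjusted p = 5.85e-06). VIP against EXC, at -0.31 ± 0.18 (adjusted p = 0.163), did not pass, but it did without EXC replicate 3, at -0.46 ± 0.16 (adjusted p = 0.023). Within a pool PV against EXC was 1.85 ± 0.15 and SST against VIP was 1.53 ± 0.21, while with pool as a term PV against SST was -0.0481 (adjusted p = 0.952). Of alpha own reads, Pcdhac2 made up 75.4% ± 6.003 in PV, 66.1% ± 3.83 in SST, 41.3% ± 12.7 in VIP and 46.6% ± 13.3 in EXC (SD, n = 6 each).

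Pcdhgc3, whose cytoplasmic tail binds the Wnt pathway scaffold Axin1 and which promotes dendrite branching in mouse cortex, was lowest in SST. It ran from 8.44 to 19.2 CPM with a median of 10.7 in PV libraries, from 2.47 to 7.89 with a median of 5.37 in SST libraries, from 8.64 to 19.1 with a median of 12.2 in VIP libraries and from 4.97 to 30.8 with a median of 13.0 in EXC libraries. The SST values lay below all PV and all VIP values and overlapped EXC. SST was lower than EXC, at -1.503 ± 0.34 (adjusted p = 0.000972), and than VIP, at -1.39 ± 0.35 (adjusted p = 0.00349), and PV was higher than SST by 1.19 ± 0.36 (adjusted p = 0.0136). The summed astrocyte markers were also lowest in SST, at 529 ± 205 CPM in PV, 285 ± 44.6 in SST, 1309.8 ± 207 in VIP and 1755 ± 1323 in EXC, and their part in the Pcdhgc3 values was not tested. The Pcdhgc3 values changed in fits that took pool into account, and the cause was not tested. Within POOL7098 SST against VIP was -0.76 ± 0.39 (adjusted p = 0.133), and with pool as a term SST against EXC turned to 0.96 (adjusted p = 0.344) and PV against SST to -1.44 (adjusted p = 0.21). Pcdhac1, whose protein also needs a partner protocadherin to reach the surface, averaged 5.87 ± 3.33 CPM in PV, 1.87 ± 1.01 in SST, 2.34 ± 2.20 in VIP and 2.14 ± 1.04 in EXC, and did not pass the test among subtypes (adjusted p = 0.0624). Its PV against EXC value, 1.51 ± 0.65 (adjusted p = 0.0611), passed without EXC replicate 3, at 1.67 (adjusted p = 0.0439), and within POOL6188, at 1.66 ± 0.53 (adjusted p = 0.0179).

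The shared part sums over a whole cluster, whichever variable exon is used. The alpha shared part ran from 380.2 to 496 CPM with a median of 469.6 in PV libraries, from 253 to 475 with a median of 340.0 in SST libraries, from 187 to 299 with a median of 263 in VIP libraries and from 184 to 249 with a median of 214 in EXC libraries. All PV libraries lay above all VIP and EXC libraries, and all SST above all EXC libraries. PV was higher than EXC by 1.11 ± 0.14 (adjusted p = 4.4e-07) on the log2 scale, than SST by 0.40 ± 0.14 (adjusted p = 0.033) and than VIP by 0.83 ± 0.14 (adjusted p = 3.36e-05). SST was higher than EXC by 0.70 ± 0.14 (adjusted p = 0.000265) and than VIP by 0.43 ± 0.14 (adjusted p = 0.0231), and VIP against EXC, at 0.27 ± 0.14 (adjusted p = 0.135), did not pass. The PV against EXC value was 1.08 ± 0.11 within POOL6188. SST against VIP did not pass within POOL7098, at 0.46 ± 0.22 (adjusted p = 0.103), and with pool as a term SST against EXC, PV against VIP and PV against SST did not pass either, at 0.83, 0.62 and 0.24.

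The gamma shared part was lower in PV and in VIP than in EXC. It ran from 122 to 191 CPM with a median of 159 in PV libraries, from 216 to 275 with a median of 235 in SST libraries, from 128 to 239.7 with a median of 171 in VIP libraries and from 79.5 to 416 with a median of 284 in EXC libraries. EXC replicate 3, at 79.5 CPM, was the lowest of all 24 libraries, and the other EXC libraries lay at 275 CPM or more. PV was lower than EXC, at -0.86 ± 0.25 (adjusted p = 0.00596), and VIP was lower than EXC, at -0.68 ± 0.25 (adjusted p = 0.0314). PV against VIP, at -0.18 ± 0.25 (adjusted p = 0.573), PV against SST, at -0.58 ± 0.25 (adjusted p = 0.0819), SST against EXC, at -0.27 ± 0.24 (adjusted p = 0.393), and SST against VIP, at 0.41 ± 0.25 (adjusted p = 0.222), did not pass. The VIP against EXC value did not pass without VIP replicate 1, 3 or 6 or EXC replicate 1, 5 or 6. PV overlapped VIP and, through replicate 3, EXC, and lay below SST without overlap. Without EXC replicate 3, SST against EXC also passed, at -0.50 ± 0.16 (adjusted p = 0.0138), as did PV against SST, at -0.57 ± 0.16 (adjusted p = 0.00704). Within POOL6188 PV against EXC was -1.05 ± 0.14 (adjusted p = 1.62e-05), and within POOL7098 SST was higher than VIP by 0.93 ± 0.20 (adjusted p = 0.00212). The VIP libraries of POOL7098 are only replicates 1 and 3, at 128 and 139 CPM, against a VIP median of 171. With pool as a term, which rests on EXC replicate 3, VIP against EXC turned to 1.45 (adjusted p = 0.00105).

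Per kilobase, the summed gamma own parts over the gamma shared part were 1.01 ± 0.157 in PV, 1.05 ± 0.121 in SST, 1.41 ± 0.276 in VIP and 1.59 ± 0.959 in EXC (SD, n = 6 each). EXC replicate 3 had the highest of these ratios, at 3.55, where the other 5 EXC libraries had 1.12 to 1.32. The alpha ratios were 0.405 ± 0.0492 in PV, 0.298 ± 0.0325 in SST, 0.295 ± 0.0593 in VIP and 0.380 ± 0.0776 in EXC. For alpha the own parts thus made up less than the shared part per kilobase, and for gamma about as much or more.

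**Figure D3:**
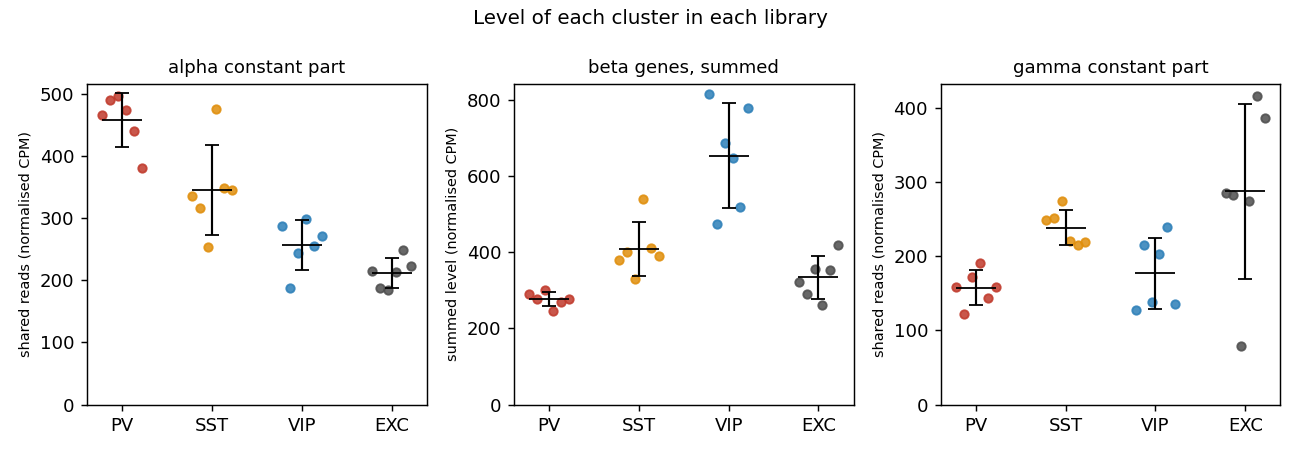
Level in normalised CPM (vertical) of the alpha shared reads, the summed beta genes and the gamma shared reads in each library (points), by subtype, with the mean and SD of 6 libraries (bars). The mean of alpha is highest in PV, that of beta in VIP and that of gamma in EXC, where replicate 3 stands apart at 79.5 CPM.

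Beta genes, which encode adhesion proteins without the constant tail, were highest in VIP. Their summed level was 277 ± 18.9 in PV, 408 ± 70.5 in SST, 654 ± 137 in VIP and 334 ± 56.0 in EXC in CPM (SD, n = 6 each). Every VIP library lay above every PV and every EXC library. VIP had the highest mean for 20 of the 22 genes and PV the lowest for 14, the untested Pcdhb1 among them. Such ranks were not counted over all genes. Of the 21 tested, 16 differed among the subtypes, where 68.5% of all genes did. VIP against EXC called 14 genes, all higher in VIP, and the median log2 fold change was 0.95 over the 21 against 0.01 over all genes (18.4% of all genes were called higher, 20.7% lower). PV against VIP called 15, all lower in PV, with a median of -1.37 against -0.09 (26.7% of all genes were called lower, 21.9% higher). SST against VIP called 7, all lower in SST (16.7% of all genes, with 14.6% higher). SST against EXC called 6, all higher in SST (17.1% of all genes, with 21.3% lower). PV against SST called 8, all lower in PV (14.9% of all genes, with 11.4% higher). PV against EXC called 1 higher and 4 lower (20.3% and 25.6% of all genes), where the median over all genes was -0.12 and that over beta genes -0.16.

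These counts changed in fits that took pool into account, and the cause was not tested. Within POOL7098, SST against VIP called 9 beta genes, all lower in SST (21.2% of all genes were called lower in that fit), and within POOL6188 PV against EXC called 3, all lower in PV (23.9%). The VIP libraries of POOL7098 are only replicates 1 and 3, whose summed beta levels, given below, were among the higher VIP values. With pool as a term VIP against EXC called 2, with 20 of 21 values above 0 (13.5% of all genes were called higher), and PV against VIP called 3, with 19 of 21 below 0 (10.6% of all genes were called lower). The shares of all genes above and below 0 in that fit were not counted, so the signs have no background to be read against. The count of PV against SST fell to 4 without SST replicate 4 and to 5 without PV replicate 2 or 4, with a range of 4 to 10 over the libraries left out 1 at a time. That of SST against VIP fell to 4 without VIP replicate 1, with a range of 4 to 10. VIP libraries also differed among themselves. The summed beta level was 814, 687 and 779.6 CPM in VIP replicates 1, 3 and 6, whose mitochondrial share of reads was 1.80% to 5.83%, and 474, 649 and 518 CPM in replicates 2, 4 and 5, with 14.2% to 16.6%. Their gamma shared part ran the other way, at 128, 139 and 136 CPM in replicates 1, 3 and 6 and 216, 203 and 239.7 CPM in replicates 2, 4 and 5. The part of RNA quality in these values was not tested.

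Pcdhb9 had the smallest p of the beta genes. It ran from 5.24 to 16.4 CPM with a median of 7.97 in PV libraries, from 10.7 to 22.4 with a median of 18.7 in SST libraries, from 33.5 to 52.5 with a median of 43.0 in VIP libraries and from 11.6 to 24.5 with a median of 13.7 in EXC libraries. All VIP libraries lay above all others. VIP was higher than EXC by 1.503 ± 0.24 (adjusted p = 1.3e-05), PV was lower than VIP, at -2.33 ± 0.26 (adjusted p = 5.13e-08), and SST was lower than VIP, at -1.32 ± 0.23 (adjusted p = 9.95e-05), with -1.21 ± 0.24 within POOL7098. With pool as a term VIP against EXC was 2.03 (adjusted p = 0.0057).

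Pcdhb16, Pcdhb17 and Pcdhb18, the beta genes with the highest RPKM, were also highest in VIP. Pcdhb16 averaged 42.1 ± 5.89 CPM in PV, 52.1 ± 10.3 in SST, 95.4 ± 24.8 in VIP and 51.8 ± 18.2 in EXC. Pcdhb17 averaged 26.1 ± 5.95 CPM in PV, 42.3 ± 8.99 in SST, 66.6 ± 13.7 in VIP and 41.9 ± 13.7 in EXC. Pcdhb18 averaged 23.2 ± 5.22 CPM in PV, 35.0 ± 12.1 in SST, 81.0 ± 38.1 in VIP and 26.7 ± 12.7 in EXC (SD, n = 6 each). For all 3 the PV libraries lay below the VIP libraries without overlap, while EXC and VIP overlapped. VIP was higher than EXC by 0.85 ± 0.21, 0.67 ± 0.21 and 1.64 ± 0.31 on the log2 scale. Pcdhb4, Pcdhb5, Pcdhb15 and Pcdhb20 were higher in VIP than in EXC too, by 1.22 ± 0.27, 1.64 ± 0.29, 1.21 ± 0.27 and 0.999 ± 0.22. With pool as a term none of these 7 differences passed, with values of 0.33 to 1.39.

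Other beta genes followed other patterns. Pcdhb7 averaged 5.38 ± 2.61 CPM in PV, 12.7 ± 2.24 in SST, 17.2 ± 4.42 in VIP and 16.1 ± 6.41 in EXC, and was lower in PV than in EXC, at -1.60 ± 0.35 (adjusted p = 0.000485), with -1.59 ± 0.46 within POOL6188 (adjusted p = 0.00944). Pcdhb6, the beta gene called higher in PV than in EXC, averaged 4.04 ± 2.09 CPM in PV, 4.37 ± 1.07 in SST, 4.44 ± 1.51 in VIP and 1.48 ± 1.10 in EXC, with 1.31 ± 0.52 for PV against EXC, a value that did not pass without PV replicate 1, 2, 5 or 6, SST replicate 4 or EXC replicate 2 or 3. Both were chosen after their values were seen. Pcdhb22 had the largest p among the subtypes (adjusted p = 0.33), with 17.4 ± 5.19 CPM in PV, 14.5 ± 4.02 in SST, 21.5 ± 5.08 in VIP and 18.2 ± 13.5 in EXC. Pcdhb14, Pcdhb2, Pcdhb21 and Pcdhb8 did not pass the test among subtypes either.

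**Figure D4:**
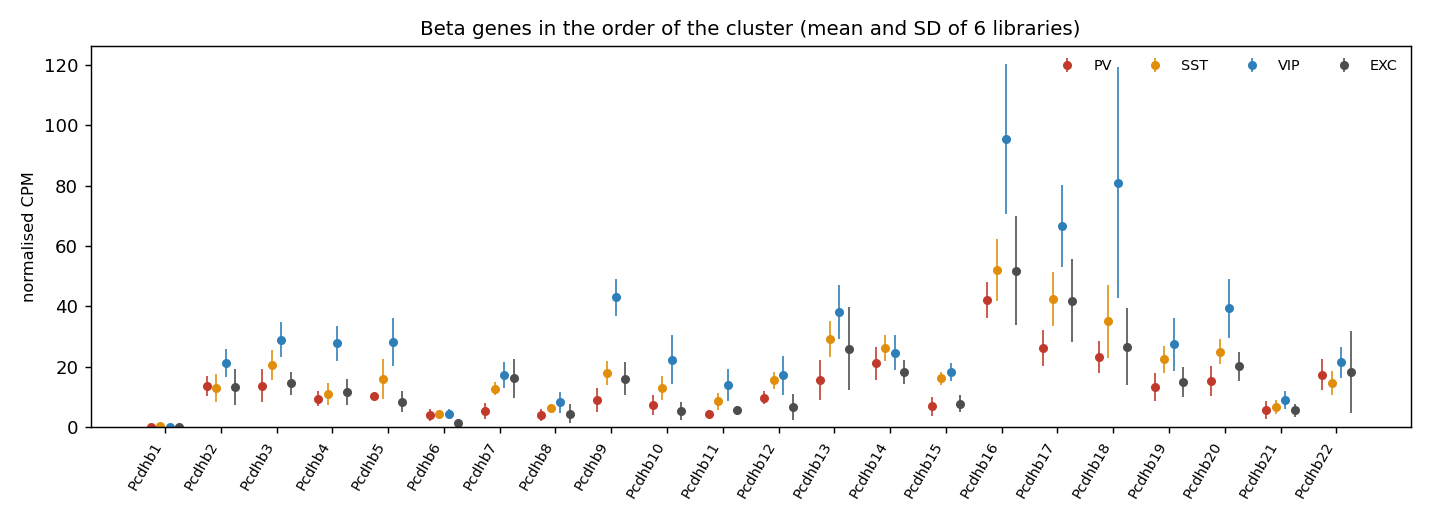
Level of the 22 beta genes in normalised CPM (vertical), in the order of the cluster, as the mean and SD of 6 libraries per subtype. VIP has the highest mean for 20 genes, Pcdhb9 and Pcdhb18 among them, and Pcdhb1 is near 0 in every subtype.

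The gamma A and gamma B genes are the alternate isoforms of the cluster, each with its own promoter, and together they were lowest in PV. Their summed own level was 116 ± 8.40 in PV, 190.4 ± 26.6 in SST, 222 ± 42.3 in VIP and 259 ± 46.1 in EXC in CPM (SD, n = 6 each), with every PV library below every other library. PV had the lowest mean for 10 of 12 gamma A genes and 6 of 7 gamma B genes, the pseudogene Pcdhgb8 among the latter, and EXC the highest for 7 and 5. Here too the ranks were not counted over all genes. Of the 19, 14 differed among the subtypes, where 68.5% of all genes did. PV against EXC called 11, all lower in PV, and the median log2 fold change was -0.92 against -0.11 over all genes (25% of all genes were called lower, 20.8% higher). PV against VIP called 12, all lower in PV (27.4% of all genes, with 21.1% higher), and PV against SST called 4, all lower in PV (15.4%, with 11% higher). SST against EXC called 1 higher and 4 lower (18.1% and 20.3%), VIP against EXC 1 higher and 2 lower (19.5% and 19.4%) and SST against VIP 1 higher and 1 lower (14.3% and 16.9%). Within POOL6188 PV against EXC called 9 of 18, all lower in PV (23.7% of all genes in that fit). Without EXC replicate 3, VIP against EXC called 5 lower (23.7%), and SST against VIP called 4 lower (18.8%). Leaving out 1 library at a time gave 1 to 5 lower in VIP against EXC, with 1 without EXC replicate 1 or 6 or VIP replicate 1 or 3, and 0 to 4 lower in SST against VIP, with 0 without SST replicate 4, while the gene higher in SST than in VIP did not pass without SST replicate 1, 4 or 6 or VIP replicate 1, 3 or 6. In the fit with pool, PV against VIP called 4 (10.2%).

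Of the gamma A genes, the largest decreases in PV against EXC were in Pcdhga9 to Pcdhga12, the last gamma A genes before the C-type genes. Pcdhga12 ran from 1.503 to 6.75 CPM with a median of 3.63 in PV libraries, from 8.43 to 14.2 with a median of 12.5 in SST libraries, from 5.18 to 20.4 with a median of 13.4 in VIP libraries and from 13.0 to 34.4 with a median of 18.5 in EXC libraries. PV did not overlap SST or EXC. PV was lower than EXC, at -2.49 ± 0.36 (adjusted p = 2.39e-06), than SST, at -1.62 ± 0.36 (adjusted p = 0.00109), and than VIP, at -1.80 ± 0.35 (adjusted p = 0.000172). Pcdhga9, Pcdhga10 and Pcdhga11 were lower in PV than in EXC as well, at -2.11 ± 0.43, -1.86 ± 0.28 and -1.94 ± 0.32. Within POOL6188 the values from Pcdhga9 to Pcdhga12 were -1.92 ± 0.48, -1.93 ± 0.32, -2.13 ± 0.25 and -2.67 ± 0.38, each past the test. SST was lower than EXC for Pcdhga10, Pcdhga11 and Pcdhga12, at -0.83 ± 0.24, -1.17 ± 0.29 and -0.87 ± 0.30, but with pool as a term the values were 0.0975, 1.69 and 0.78, with adjusted p = 0.922, 0.019 and 0.418.

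Pcdhga3, Pcdhga5 and Pcdhgb1, among the alternate gamma genes with the highest RPKM, were also lowest in PV and highest in EXC. Pcdhga3 averaged 18.5 ± 8.02 CPM in PV, 23.6 ± 2.20 in SST, 21.6 ± 4.84 in VIP and 32.9 ± 6.44 in EXC. Its PV against EXC value was -0.84 ± 0.23 (adjusted p = 0.00478), and its VIP against EXC value, -0.60 ± 0.23 (adjusted p = 0.0369), was 0.12 with pool as a term. Pcdhga5 averaged 10.1 ± 4.15 CPM in PV, 16.6 ± 2.22 in SST, 17.5 ± 5.03 in VIP and 19.3 ± 4.60 in EXC, with -0.83 ± 0.25 for PV against EXC. Pcdhgb1 averaged 13.6 ± 5.63 CPM in PV, 18.7 ± 5.26 in SST, 21.8 ± 7.32 in VIP and 26.6 ± 13.7 in EXC, with -0.94 ± 0.32. Pcdhgb2 and Pcdhgb7 were lower in PV than in EXC too, at -1.46 ± 0.31 and -1.67 ± 0.56. Within POOL6188 the PV against EXC values of Pcdhga3, Pcdhga5 and Pcdhgb2 passed, at -0.93 ± 0.26, -0.77 ± 0.29 and -1.52 ± 0.38. Those of Pcdhgb1, at -0.90 ± 0.36 (adjusted p = 0.0522), and Pcdhgb7, at -1.10 ± 0.60 (adjusted p = 0.146), did not pass there. Pcdhgb7 was also lower in PV than in VIP, at -1.65 ± 0.55 (adjusted p = 0.015), against 0.33 with pool as a term (adjusted p = 0.854). Pcdhgb5 averaged 4.74 ± 2.25 CPM in PV, 5.82 ± 1.93 in SST, 8.19 ± 3.87 in VIP and 9.32 ± 7.78 in EXC. Pcdhga8, chosen after its values were seen, had its lowest mean in EXC, with 6.83 ± 2.71 CPM in PV, 13.6 ± 2.70 in SST, 20.4 ± 7.13 in VIP and 6.02 ± 3.80 in EXC. It was higher than EXC in VIP, by 1.77 ± 0.45 (adjusted p = 0.00266), and in SST, by 1.16 ± 0.44 (adjusted p = 0.0398). The SST value did not pass without PV replicate 1, 2, 3, 5 or 6, SST replicate 1, 2, 4, 5 or 6, VIP replicate 5 or EXC replicate 2, 3 or 4. With pool as a term these were 2.14 (adjusted p = 0.129) and 1.28 (adjusted p = 0.415). Pcdhga4 had the largest p of the gamma genes (adjusted p = 0.379), with 4.98 ± 3.54 CPM in PV, 6.86 ± 1.94 in SST, 7.04 ± 2.75 in VIP and 5.14 ± 1.23 in EXC.

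**Figure D5:**
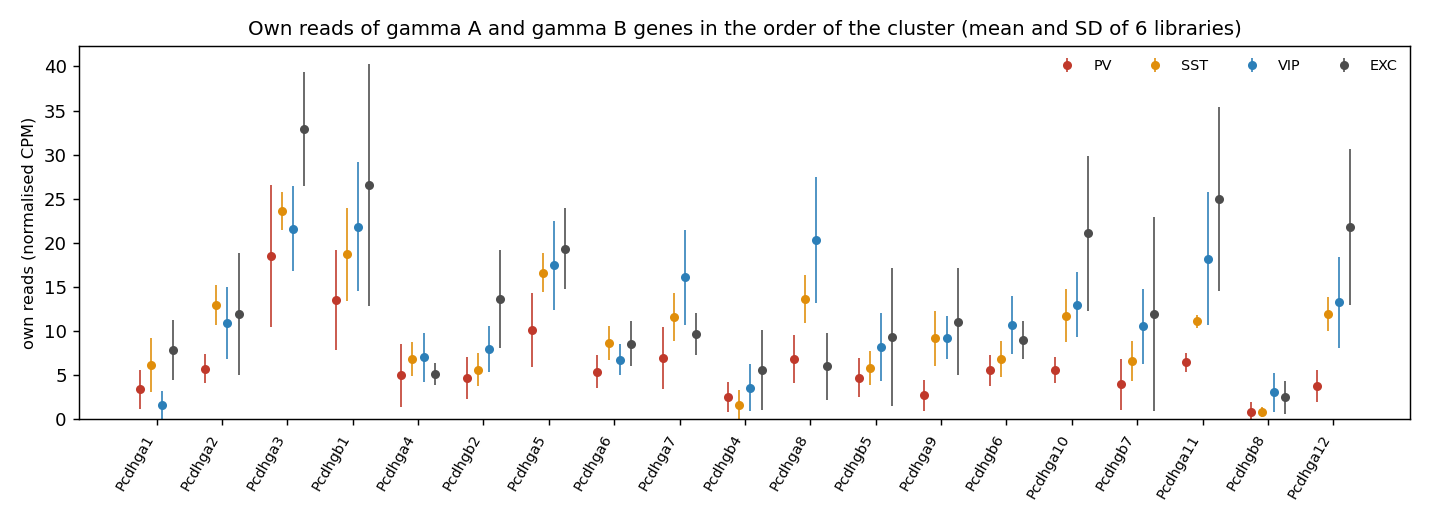
Own reads of the 12 gamma A and 7 gamma B genes in normalised CPM (vertical), in the order of the cluster, as the mean and SD of 6 libraries per subtype. PV has the lowest mean for 10 gamma A and 6 gamma B genes, and Pcdhga8 has its highest mean in VIP and its lowest in EXC.

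The 12 alternate alpha genes had few own reads, and the ranges of their summed level overlapped, at 33.8 ± 8.43 in PV, 28.3 ± 5.53 in SST, 36.2 ± 12.4 in VIP and 36.4 ± 17.5 in EXC in CPM (SD, n = 6 each). Of the 11 tested, 4 differed among the subtypes, where 68.5% of all genes did. Pcdha3 averaged 3.71 ± 2.21 CPM in PV, 2.56 ± 1.36 in SST, 2.66 ± 1.23 in VIP and 0.645 ± 0.524 in EXC, and was higher than EXC in PV, by 2.49 ± 0.58 (adjusted p = 0.000932), in SST, by 1.93 ± 0.54 (adjusted p = 0.00623), and in VIP, by 2.10 ± 0.58 (adjusted p = 0.00501). Pcdha9 averaged 1.74 ± 1.17 CPM in PV, 3.70 ± 1.45 in SST, 4.50 ± 1.61 in VIP and 7.45 ± 6.38 in EXC, and was lower in PV than in EXC, at -2.06 ± 0.57 (adjusted p = 0.00468). Pcdha8 had 7 own reads over the PV libraries, 1 over the SST libraries, 109 over the VIP libraries and 57 over the EXC libraries. Those of VIP and EXC were uneven, with 0 to 35 and 0 to 36 reads per library. Pcdha7 was lower in SST than in VIP, at -2.10 ± 0.64 (adjusted p = 0.0134), with 55 own reads over the SST libraries. Within POOL7098 that difference, at -1.42 ± 0.62 (adjusted p = 0.0815), did not pass. Pcdha5 averaged 8.23 ± 2.93 CPM in PV, 6.63 ± 1.33 in SST, 7.81 ± 2.66 in VIP and 6.42 ± 5.72 in EXC, and Pcdha12 averaged 3.31 ± 2.44 CPM in PV, 3.66 ± 0.329 in SST, 3.03 ± 2.26 in VIP and 7.48 ± 4.01 in EXC, and neither passed the test among subtypes (adjusted p = 0.724 and 0.0843). The means of Pcdha1, Pcdha2, Pcdha4, Pcdha6, Pcdha7, Pcdha10 and Pcdha11 were 1.02 to 5.09 CPM in PV, 0.548 to 2.92 in SST, 0.266 to 4.47 in VIP and 0.486 to 3.63 in EXC.

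Per kilobase of exon, the highest own level in PV was that of Pcdhac2, at 47.7 ± 5.9998 CPM per kilobase, with Pcdhgc4 next at 13.8 ± 2.29. In SST the highest were Pcdhgc5, at 26.9 ± 6.90, and Pcdhac2, at 23.0 ± 3.55, which did not differ beyond their spread. In VIP the highest were Pcdhb17, at 20.4 ± 4.18, Pcdhb16, at 18.1 ± 4.71, Pcdhb18, at 16.1 ± 7.57, and Pcdhgc4, at 15.9 ± 6.56, which did not differ beyond their spread. In EXC the highest was Pcdhgc5, at 67.9 ± 27.5, followed by Pcdhb17, at 12.8 ± 4.20, and Pcdhga3, at 12.8 ± 2.50 (SD, n = 6 each).

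Female against male libraries called 0 of the 57 members in edgeR, with 0 at an unadjusted p under 0.05 and 0 in DESeq2. Of all genes, 0.0403% were called, 0.0134% higher and 0.0269% lower in females. Among own and shared parts the comparison called 0 of 37, with 2 at an unadjusted p under 0.05 and 0 in DESeq2, against the same shares of all genes.

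Genes that act on or with the clusters were counted as well, from deposited counts. Of 13 tested genes of promoter choice and looping, 9 differed among the subtypes, where 68.5% of all genes did. PV against EXC called 9, all lower in PV (25.6% of all genes), SST against EXC 3, all lower in SST (21.3%), and VIP against EXC 1 higher and 2 lower (18.4% and 20.7%). Stag1, a cohesin subunit, averaged 71.5 ± 13.2 CPM in PV and 131 ± 24.8 in EXC, with -0.86 ± 0.15 for PV against EXC. Nipbl, the cohesin loader, and Wapl, which releases cohesin, were also lower in PV than in EXC, at -1.10 ± 0.20 and -0.91 ± 0.18. Stag2, a cohesin subunit, was lower in PV than in VIP, at -1.34 ± 0.17, and Pds5a, a cohesin regulator, was lower in SST than in EXC, at -1.11 ± 0.14. Wiz did not pass the test among subtypes (adjusted p = 0.366). Of 13 tested genes of DNA methylation and silencing, 9 differed (68.5% of all genes), and PV against EXC called 7, all lower in PV (25.6%). SST against EXC called 4, all lower in SST (21.3%), and VIP against EXC 2 higher and 1 lower (18.4% and 20.7%). Tet3, a DNA demethylase, averaged 32.9 ± 7.52 CPM in PV and 89.3 ± 8.99 in EXC, with -1.40 ± 0.16 for PV against EXC, and Ehmt1, a histone methyltransferase, had -0.998 ± 0.24. Tet1 and Tet2 were lower in PV than in VIP, at -1.17 ± 0.20 and -1.35 ± 0.24, Rest, a neuronal gene repressor, was lower in VIP than in EXC, at -1.36 ± 0.45, and Dnmt1 did not pass the test among subtypes (adjusted p = 0.361). The median log2 fold change of PV against EXC was -0.56 over the looping list and -0.54 over the silencing list, against -0.12 over all genes.

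Of 22 tested signalling partners, 20 differed among the subtypes, where 68.5% of all genes did. PV against EXC called 4 higher and 16 lower in PV (20.3% and 25.6% of all genes), SST against EXC 3 and 12 (17.1% and 21.3%), and VIP against EXC 3 and 13 (18.4% and 20.7%). Ptk2b, encoding the kinase Pyk2 that clustered protocadherins inhibit, averaged 9.74 ± 8.21 CPM in PV, 90.6 ± 39.7 in SST, 12.7 ± 3.59 in VIP and 699.6 ± 203 in EXC, with -6.38 ± 0.40 for PV against EXC. Ret, a receptor kinase, was higher in PV than in EXC, by 5.12 ± 0.47. Wasf1 and Wasf2, of the actin-regulating WAVE complex, were lower in PV than in EXC, at -2.89 ± 0.15 and -2.78 ± 0.46. Marcks, a membrane-bound actin regulator, was lower in PV than in VIP, at -4.20 ± 0.34, and Axin1 did not pass the test among subtypes (adjusted p = 0.641).

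The non-clustered protocadherins, related adhesion genes outside the clusters, differed among the subtypes in 12 of 12 tested genes, where 68.5% of all genes did. PV against EXC called 3 higher and 6 lower (20.3% and 25.6% of all genes), SST against EXC 5 and 4 (17.1% and 21.3%), and VIP against EXC 6 and 5 (18.4% and 20.7%). Pcdh18 averaged 4.59 ± 2.86 CPM in PV, 81.6 ± 17.5 in SST, 106 ± 18.3 in VIP and 1.67 ± 0.951 in EXC, with 5.88 ± 0.35 for VIP against EXC. Pcdh20 averaged 5.63 ± 2.12 CPM in PV, 23.9 ± 6.92 in SST, 99.4 ± 30.2 in VIP and 235 ± 47.3 in EXC, with -5.41 ± 0.29 for PV against EXC. Cdhr1 was lower in VIP than in EXC, at -4.68 ± 0.58, Pcdh15 was higher in VIP than in EXC, by 3.89 ± 0.37, and Pcdh8 was lower in PV than in VIP, at -3.31 ± 0.27.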

How the data were processed

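Each deposited count is, per the file headers, a number of uniquely aligning reads per gene model, and the deposited RPKM values were adjusted by size factors by the authors. Reads were aligned with GSNAP to GRCm38, per the submitters' processing notes. The annotation, the counting program, its strand setting and the size-factor method were not found in the labels or headers. RPKM values were used for implied lengths, for ranking members by level and as an alternative scale only. Gene numbers were matched to symbols in RefSeq for 31049 of 36528 genes, all 58 members among them.

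Genes were filtered by filterByExpr, scaled by TMM and fitted with terms for subtype and sex over 24 libraries in edgeR 4.0.16 (R 4.3.3). A call is an adjusted p under 0.05, after Benjamini-Hochberg adjustment across every tested gene. Standard errors are the log2 fold change divided by the square root of F. DESeq2 1.42.0 served as an alternative, and the script was tested on simulated data. Replicates were numbered in order of deposition. Repeat counting of shared exons made up 0.456% to 1.31% of a library's total. The split into own and shared parts was fitted in place of the 36 alpha and gamma counts. The 3 read-through models were left out of that fit, though their counts entered the search for the lowest gamma count.

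The members and lists were chosen with earlier results of these data known. Named members are the 5 C-type genes, the 10 others with the smallest p among subtypes, the 3 highest by RPKM of each group and the largest p of each cluster. The rule was applied to deposited counts, where shared reads made most alpha values alike, and after the values were seen also to own reads. From each list up to 5 called genes and 1 not called are named. Alternatives were other scalings, filters, covariates, pairs and tools, single pools, and leaving out libraries. Precision in shallow PV libraries is limited by depth.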

Additional observations from a re-analysis of the deposited data

Results flagged for a closer look

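Of 152 sets of 6 libraries, from 38 described genes in each of 4 subtypes, 15 had 1 library whose gap to the nearest other library, relative to the whole range, passed Dixon's 95% critical value. For normally distributed values chance flags about 5 in 100 such sets. Sets with few reads or zeros, such as Pcdha8 in SST, need not follow that rate. All values are normalised CPM, on own reads except for beta genes.

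EXC replicate 3 stood apart for Pcdha2, at 11.2 against 0 to 1.27 in the other EXC libraries, and for Pcdhgb7, at 33.9 against 5.23 to 11.5. EXC replicate 5 stood apart for Pcdha5, at 17.9 against 3.25 to 5.94, and for Pcdhgb5, at 24.8 against 3.496 to 8.57. EXC replicate 6 had 44.6 for Pcdhb22, against 8.35 to 17.4. Among low alpha genes, EXC replicate 2 stood apart for Pcdha1, at 1.52 against 0 to 0.531, and EXC replicate 1 for Pcdha4, at 4.14 against 1.15 to 2.03. PV replicate 4 stood apart for 3 genes, with 3.76 for Pcdha4 against 0 to 1.27 in the other PV libraries, 9.02 for Pcdhgb5 against 2.53 to 4.68, and 12.03 for Pcdhga4 against 2.20 to 4.50. In SST, replicate 1 had 3.78 for Pcdhac1, against 1.17 to 2.05, and 0.084 for Pcdha8, from 1 read, against 0. SST replicate 2 had 5.31 for Pcdha3, against 1.76 to 2.33, and SST replicate 4 had 57.7 for Pcdhb18, against 25.8 to 37.5. VIP replicate 2 was low for Pcdhb4, at 16.4 against 28.3 to 31.2.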

How the results depend on the processing

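For 88 log2 fold changes of described members, 3151 values under alternatives were computed, of which 2991 kept direction and call, 149 kept direction but missed the threshold and 11 reversed. All 11 reversals came with pool as a term, where EXC and the VIP pool are joined by 1 library, and the cause was not tested. They were Pcdhac2 in PV against SST, at -0.0481, Pcdhgc3 in SST against EXC, at 0.96, and in PV against SST, at -1.44, Pcdhgc5 in SST against EXC, at 0.39, and in PV against VIP, at -0.93, Pcdhga3 in VIP against EXC, at 0.12, Pcdhgb7 in PV against VIP, at 0.33, Pcdhga10, Pcdhga11 and Pcdhga12 in SST against EXC, at 0.0975, 1.69 and 0.78, and the gamma shared part in VIP against EXC, at 1.45.

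Counts of called members in the deposited data moved by many genes at a time, and the cause was not tested. SST against EXC called 21, with 19 to 42 when 1 library was left out, the 42 without EXC replicate 3, and 33 without both libraries alone in their pool. VIP against EXC called 34, with 14 to 39, 14 to 22 without EXC replicate 1, 2, 5 or 6 or VIP replicate 1 or 6, and 13 when only VIP and EXC were fitted. PV against SST called 23, with 10 to 46, the 46 without EXC replicate 3 and 10 to 13 without PV replicate 4 or SST replicate 1, 2, 3, 5 or 6. It called 49 with only PV and SST, and 44 without both lone libraries. SST against VIP called 22, with 12 to 24, 12 without SST replicate 4 and 13 without VIP replicate 2, and 11 with DESeq2's size factors. Among own and shared parts, pool as a term gave 7 calls in SST against EXC (12 in the model without it), 8 in PV against VIP (17) and 5 in SST against VIP (8). Fits of only the pair gave 5 in VIP against EXC (8) and 14 in PV against SST (9). Leaving out SST replicate 4 gave 5 in SST against VIP, with a range of 5 to 11. Plain CPM gave PV over EXC ratios of 1.59, 0.611 and 0.396 for alpha, beta and gamma, against 2.14, 0.830 and 0.532, and gamma in SST over EXC was 0.701 to 0.873 when 1 library was left out, the lowest without EXC replicate 3, against 0.799. No paired analysis was possible because replicate numbers only follow the order of deposition.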
